A study of Mus musculus with 16 samples.

Results

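Irx1, Irx2 and Hhex encode homeodomain transcription factors of the non-beta endocrine cells of the islet, and the chromatin around them was examined in islets of 8 inbred mouse strains. A region was any stretch of merged peaks, from the 16 sample lists on chromosomes 1 to 19, that overlapped the gene body of one of the 3 genes, the 3 kb upstream of it or 20 kb on either side. This gave 25 regions out of 347712, of which 8 lay at Irx1 (ENSMUSG00000060969.9, chr13:71957921-71963723, minus strand), 9 at Irx2 (ENSMUSG00000001504.10, chr13:72628820-72634198, plus strand) and 8 at Hhex (ENSMUSG00000024986.12, chr19:37434810-37440731, plus strand), in mm10 and GENCODE M21. Regions were taken by position around these genes and not by their signal.

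The samples were pancreatic islets, the endocrine clusters of the pancreas, from 129S1_SvImJ (129), A_J (AJ), C57BL/6J (B6), NOD_ShiLtJ (NOD), NZO_HlLtJ (NZO), CAST_EiJ (CAST), PWK_PhJ (PWK) and WSB_EiJ (WSB) mice. Each strain gave 1 female and 1 male sample, and a selection of 50 islets of average size went into each. The labels give no treatment, and the age of the animals and the number of animals behind a sample were not given in the sources used here. The text of the study counts 129, AJ, B6, NOD and NZO as classical strains and CAST, PWK and WSB as wild-derived. Open chromatin was measured by ATAC-seq, where accessible DNA is cut and tagged with sequencing adapters by a transposase. The female and the male were the only samples of a strain, so the spread within a strain also holds any difference of sex.

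Islets are mixtures of cell types. Beta cells secrete insulin and are the most numerous in the mouse, alpha cells secrete glucagon and delta cells secrete somatostatin. Irx1 and Irx2 belong to the Iroquois family and, like Pou3f4, are known as factors of alpha cells. Hhex is known as a factor that delta cells need to form and to keep making somatostatin, and outside the islet it acts in liver, endothelium and blood. In such bulk samples, fewer cells of a type and less open chromatin in each cell cannot be told apart.

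The sequences below are those under the signal that the results turn on, 300 bases centred on the median summit, or for the start of Hhex the 250 bases before it. They were read from the RefSeq copy of GRCm38, the assembly that the files call mm10, which is the C57BL/6J genome, and are written 5′ to 3′ in the direction of the gene. Capitals mark matches to the motifs described later, except in the intronic window of Hhex, where they mark the last 43 bases of a coding exon.
Hhex downstream, chr19:37458095-37458394, plus strand: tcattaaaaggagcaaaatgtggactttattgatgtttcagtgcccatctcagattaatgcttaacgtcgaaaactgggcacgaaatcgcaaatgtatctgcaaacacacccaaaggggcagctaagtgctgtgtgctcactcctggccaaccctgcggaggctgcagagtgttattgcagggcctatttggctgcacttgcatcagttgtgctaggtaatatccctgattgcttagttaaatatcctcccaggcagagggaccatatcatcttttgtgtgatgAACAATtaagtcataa
Hhex intron, chr19:37437575-37437874, plus strand: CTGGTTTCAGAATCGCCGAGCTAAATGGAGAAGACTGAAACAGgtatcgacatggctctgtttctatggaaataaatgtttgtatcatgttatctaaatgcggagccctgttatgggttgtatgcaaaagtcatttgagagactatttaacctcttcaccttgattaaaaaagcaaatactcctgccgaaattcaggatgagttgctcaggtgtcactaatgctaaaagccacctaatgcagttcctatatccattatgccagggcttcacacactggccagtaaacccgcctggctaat
Hhex start, chr19:37434560-37434809, plus strand: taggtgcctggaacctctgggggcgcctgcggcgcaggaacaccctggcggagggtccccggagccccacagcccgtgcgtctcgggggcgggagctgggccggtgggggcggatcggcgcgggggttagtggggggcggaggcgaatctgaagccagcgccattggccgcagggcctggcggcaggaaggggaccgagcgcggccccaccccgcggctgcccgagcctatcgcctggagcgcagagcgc
Irx2 start, chr13:72628507-72628806, plus strand: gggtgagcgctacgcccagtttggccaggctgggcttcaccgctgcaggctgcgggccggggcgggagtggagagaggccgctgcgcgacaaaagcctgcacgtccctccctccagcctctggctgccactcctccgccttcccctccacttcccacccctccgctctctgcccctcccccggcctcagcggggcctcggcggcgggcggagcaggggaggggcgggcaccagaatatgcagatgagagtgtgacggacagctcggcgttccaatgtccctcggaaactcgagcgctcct
Irx2 downstream, chr13:72639645-72639944, plus strand: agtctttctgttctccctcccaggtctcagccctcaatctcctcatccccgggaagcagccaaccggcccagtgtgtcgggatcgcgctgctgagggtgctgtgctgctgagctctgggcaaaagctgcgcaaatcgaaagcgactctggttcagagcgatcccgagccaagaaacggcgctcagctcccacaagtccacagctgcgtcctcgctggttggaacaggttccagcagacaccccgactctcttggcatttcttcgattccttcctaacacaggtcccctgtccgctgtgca
Irx1 downstream, chr13:71951533-71951832, minus strand: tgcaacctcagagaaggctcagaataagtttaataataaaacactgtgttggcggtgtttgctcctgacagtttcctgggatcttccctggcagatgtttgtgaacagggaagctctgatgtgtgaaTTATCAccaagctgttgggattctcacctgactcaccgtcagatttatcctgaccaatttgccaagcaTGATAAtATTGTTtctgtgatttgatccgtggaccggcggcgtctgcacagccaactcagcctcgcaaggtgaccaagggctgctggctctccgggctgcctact

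Values below are scaled signals, the highest summit signal of a sample within a region divided by the median of that sample over the 40940 regions called in every sample, here called shared regions. A scaled signal of 1 is thus the level of a typical shared region, and 0 means that no peak was listed, not that the chromatin was closed. The sample medians lay between 32 (PWK male) and 136 (CAST male), and the sample lists held from 77887 peaks (AJ male) to 167051 (WSB female) on the autosomes. The NZO male and the 129 female had the largest excess of signal at gene starts over other shared regions, 1.65 and 1.63 on the log2 scale, and the B6 male had the smallest, 0.75. The NZO male also had the highest summed start-region signal over the marker genes of 5 other cell types. Leukocyte markers summed to 2.71 there against a median of 0.518, duct markers to 2.49 against 1.03, acinar markers to 1.18 against 0.270, endothelial markers to 1.16 against 0.520 and the hepatocyte-like pair to 0.364 against 0. Stromal markers were highest in the B6 male, at 2.10, and summed to 1.455 in the NZO male, against a median of 1.2. In the NZO male 4 of the 7 leukocyte markers, 5 of the 5 duct markers and 3 of the 6 endothelial markers had a peak listed. Of the 8 acinar markers, Cela1 (0.364) and Rbpjl (0.818) had one there. Not every marker was highest in this library, and Cd68 alone gave 1.545 of its leukocyte sum. Kdr and Tek, with a peak in 6 and 11 samples, had none in the NZO male, and Cpa1 and Cela2a had one in the B6 female alone. Cftr was at 0.655 in the NZO male against 1.27 in the AJ male, and Ptprc at 0.218 against 0.4. Among the markers, Spi1 (0.509), Adgre1 (0.436), Sox9 (0.655), Pecam1 (0.164) and the hepatocyte gene Alb (0.364) had a peak in the NZO male and in no other sample, while Cd3e, Cd79a, Pnlip, Ptf1a, Cel and Plvap had none in any sample.

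The alpha and delta cell labels were checked at the start regions of their defining genes. The start region of Gcg, which encodes glucagon, carried a peak in every sample, at a scaled signal of 1.86 (NZO male) to 5.90 (NOD female). That of Sst, which encodes somatostatin, had a peak in the PWK female alone, at 0.0968. The other delta markers, Rbp4 (a retinol carrier) and Ghsr (the ghrelin receptor), had one in all 16. The summed signal of the 3 delta markers ranged from 0.590 in the B6 male to 1.69 in the PWK female.

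Of the 25 regions, 5 had a peak in all 16 samples, beside 11.8% of all regions. These were 2 at Hhex, 2 at Irx2 and 1 at Irx1. A peak in 10 to 15 samples was listed at 7 further regions, and 13 regions had a peak in at most 6. Peaks of wild-derived samples alone made up 9 of the 25 regions, beside 36.2% of all regions, and 1 region was listed in a classical sample alone, beside 22% of all. The share of regions seen in wild-derived strains alone was thus close to that of the genome. The samples with the most of these regions were the WSB female with 20 and the CAST female with 19, and the B6 male had the fewest with 7.

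**Figure D1:**
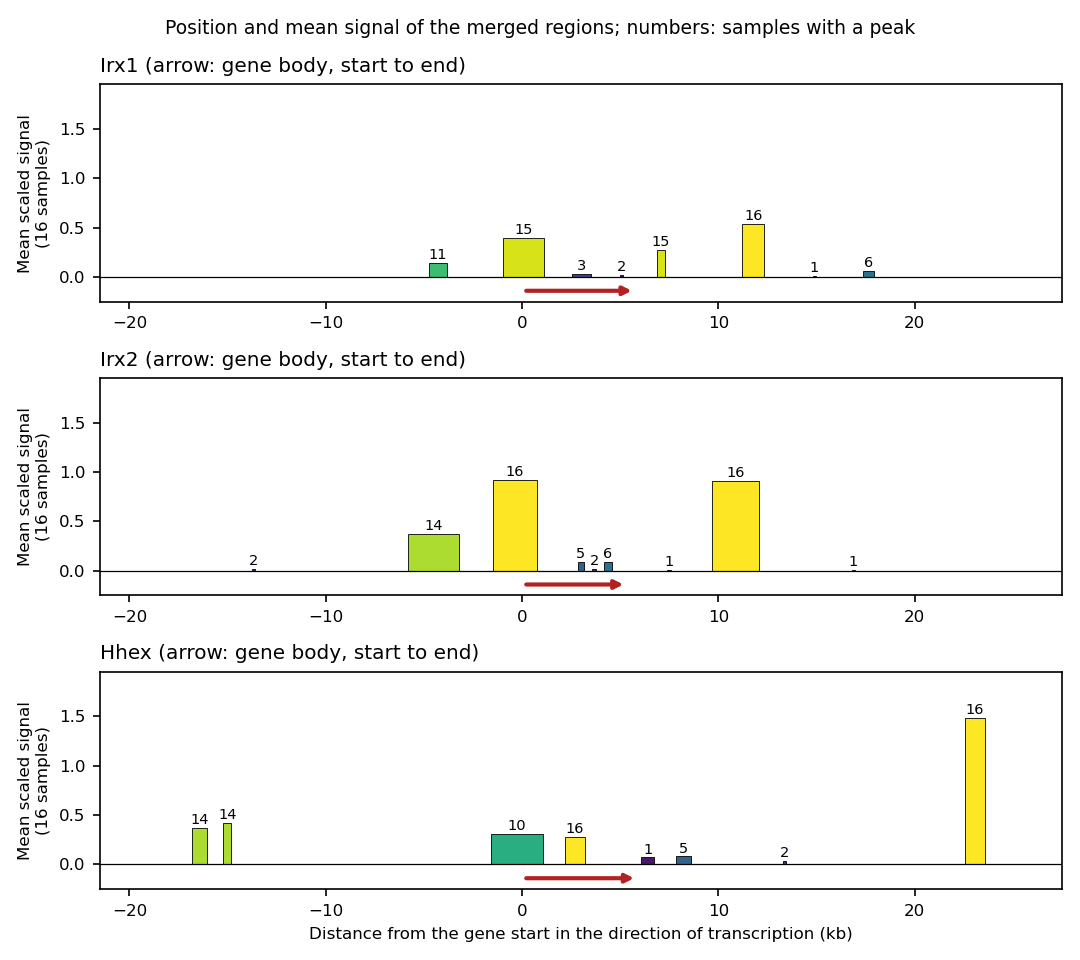
Position and mean scaled signal of the 25 regions. The x axis gives the distance from the gene start in kb, in the direction of transcription, bar height the mean scaled signal over 16 samples and bar width the extent of the region; the number above a bar, and its colour from dark to light, give the samples with a peak. The tallest bar is the Hhex region 23.4 kb downstream, at 1.48, against 0.920 for the start of Irx2 and 0.534 for the tallest bar of Irx1.

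The strongest region of Irx1, Irx2 and Hhex lay not at a start but downstream of Hhex. This region (chr19:37457366-37458399) is intergenic, 23.4 kb after the start of Hhex, and had a mean scaled signal of 1.48 ± 0.444 (SD, n = 16). The summits of the 16 samples fell within 32 bases of each other. Scaled signal was 0.638 in the 129 female, 1.52 in the 129 male, 1.85 in the AJ female and 2.31 in the AJ male. It was 0.941 and 0.867 in the B6 female and male, 1.48 and 1.91 in those of CAST, and 1.66 and 1.76 in those of NOD. In NZO it was 1.15 in both, in PWK 1.68 and 1.28, and in WSB 1.83 and 1.68. AJ had the highest strain mean, 2.08 ± 0.327 (SD, n = 2), and B6 the lowest, 0.904 ± 0.0516, a ratio of 2.3. Neighbours in the order of the strain means had overlapping libraries in 5 of 7 cases, the exceptions being AJ above WSB and PWK above NZO. The 129 female was the lowest of the 16 samples and its male was near the median. The strain effect did not pass the threshold here (limma moderated F test, adjusted p = 0.0606). It did without the 129 female (adjusted p = 0.0366), the 129 male (0.00959) or the NZO female (0.0428), and B6 was then called lower than the other 7 strains without the 129 female (-0.81, adjusted p = 0.044) and AJ higher without the 129 male (0.71, adjusted p = 0.0401).

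Within the Hhex gene, a weak region differed between strains by more than the spread of its libraries. The region (chr19:37437003-37437999) spans coding exons 2 and 3 of Hhex, and its median summit lay 2914 bases after the gene start, in the intron that follows exon 3, an exon that encodes part of the homeodomain. An annotated transcript that retains this intron makes the same base exonic there. Scaled signal was highest in WSB, at 0.462 in the female and 0.489 in the male, followed by AJ at 0.415 and 0.364. It was 0.330 and 0.331 in CAST, 0.291 and 0.329 in NOD, 0.259 and 0.290 in 129, and 0.214 and 0.169 in B6. The lowest values were those of PWK, 0.194 and 0.0938, and NZO, 0.0988 and 0.0909. The female and the male of each strain but PWK lay close together, and both NZO libraries lay below those of every other strain except the PWK male. The mean of WSB, 0.475 ± 0.0187 (SD, n = 2), was 5.01 times that of NZO, 0.0948 ± 0.00556.

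A strain effect was called at this region (limma moderated F test, adjusted p = 0.00068, and from 0.00068 to 0.0036 without any single library) and at none of the other 4 tested, so 1 of 5 was called, beside 35.7% of all 40940 regions tested. Unadjusted, 3 of the 5 had a p under 0.05, beside 51.3% of all regions tested. Against the mean of the other 7 strains, on the log2 scale, NZO was lower by -1.43 ± 0.20 (SE, adjusted p = 0.0035) and PWK by -0.81 ± 0.20 (adjusted p = 0.018). WSB was higher by 1.02 ± 0.20 (adjusted p = 0.0089) and AJ by 0.71 ± 0.20 (adjusted p = 0.047), all from limma. No strain was called against the other 7 at the remaining 4 regions. Regions called in such a contrast made up 3.09% for 129, 6.81% for AJ, 3.13% for B6, 20.6% for CAST, 3.02% for NOD, 5.19% for NZO, 11.1% for PWK and 5.81% for WSB. The counts of members called were 1 of 5 each for AJ, NZO, PWK and WSB and 0 of 5 for 129, B6, CAST and NOD. Unadjusted, 4 of the 5 had a p under 0.05 for B6, beside 17.4% of all regions. The count was 2 for AJ (28.8% of all), 1 each for 129 (22.7%), CAST (34.4%), NZO (25.9%), PWK (24.7%) and WSB (21.5%), and 0 for NOD (20.2%).

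**Figure D2:**
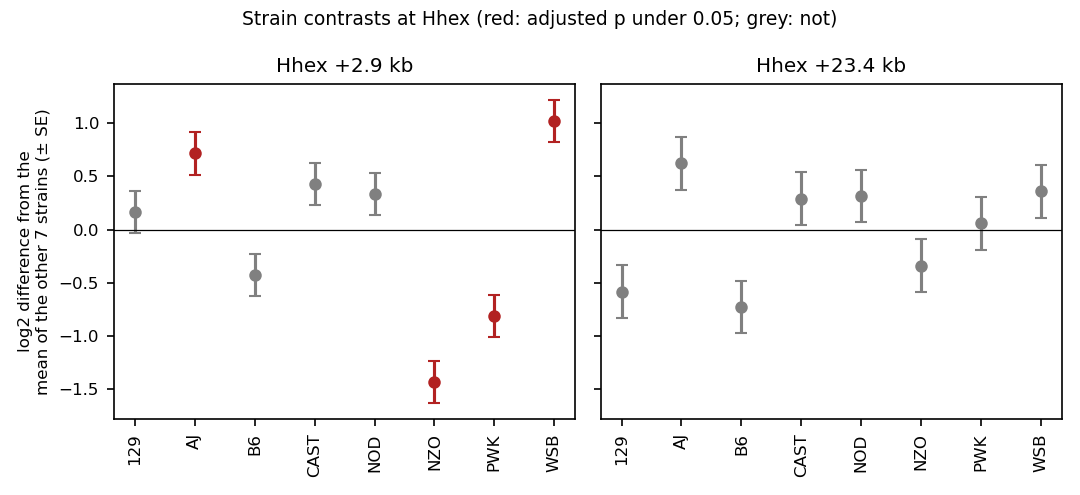
Strain contrasts at the Hhex regions 2.9 kb and 23.4 kb after the gene start. Points give the log2 difference of a strain from the mean of the other 7, bars its SE, and red a limma adjusted p under 0.05. At 2.9 kb NZO (-1.43) and PWK (-0.81) lie below 0 and WSB (1.02) and AJ (0.71) above it in red, and no point is red at 23.4 kb.

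The signal behind this call was small. Its summit signals were as low as 3 (PWK male) and 5 (NZO male) and at most 49 (WSB female), and the mean of the region was higher than that of 0.183% of the tested regions. The values deposited with its peaks and read here as −log10 p lay between 0.615 (NZO female) and 16.8 (WSB female). The call of AJ was lost in 11 of the 16 fits without a single library, with limma adjusted p = 0.265 and 0.307 when that library was one of its own. That of WSB was lost without either WSB library (adjusted p = 0.142 and 0.304). The call of PWK was lost without the PWK male, where the difference was -0.44 (adjusted p = 0.312). In these fits the lone library left in a strain was assumed to vary like the others. That of NZO held without either of its libraries but not with no centring, where the difference was -1.60 (adjusted p = 0.0664). With no centring the AJ difference was 0.36 (adjusted p = 0.552). Summits also differed in place, and lay 2817 and 2825 bases after the gene start in the NZO samples and 2875 to 2975 bases after it in the other 14, among them 2875 and 2876 in WSB.

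The start of Hhex showed a different pattern, in which peaks were missing from several strains. Its start region (chr19:37433216-37435862) covers the first exon and overlaps Gm38345, an annotated transcript on the other strand that begins upstream, and had a peak in 10 samples. The scaled signal was 1.00 in the CAST female, 1.26 in the CAST male and 1.04 in the NZO male. All other samples with a peak were at 0.360 or below, namely NOD at 0.360 and 0.195, the AJ male at 0.273, WSB at 0.236 and 0.227, the NZO female at 0.210 and the B6 female at 0.179. No peak was listed in either library of 129 or PWK, in the AJ female or in the B6 male. Only CAST was high in both of its libraries, and the NZO pair stood at 0.210 and 1.04.

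In the CAST samples, the WSB samples and the NZO male, the summit lay at -19 to -91 bases from the gene start. It lay at -617 bases in the NOD female, and in the NOD male, NZO female, B6 female and AJ male at 860 to 967 bases, past the end of the first exon. With a peak in 10 samples, this region entered no test of strain. Strain means were highest in CAST (1.13 ± 0.187, SD, n = 2) and NZO (0.623 ± 0.584), whereas 2.9 kb after the start NZO was the lowest of the 8 strains.

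Of the other regions of Hhex, a pair upstream lay within Kif11, a mitotic kinesin gene. The region at 16.3 kb upstream overlaps a Kif11 exon and that at 15.0 kb upstream lies in a Kif11 intron, and each had a peak in 14 samples. Both were missing in the 129 female and the B6 male, and their scaled signal reached 0.625 and 0.709. Downstream, the region 6.1 kb from the start had a peak in the NZO male alone, at 1.13. The region at 8.1 kb had one in 5 samples, the highest being 0.636 in the NZO male and the next 0.198 in the WSB female. The NZO male was thus high just downstream of Hhex, and at the start it lay between the CAST samples and above all others. This is the library with the high summed signal of leukocyte, duct and endothelial markers given above, whose part in this was not tested. In the last region, 13.3 kb downstream, the PWK female and the WSB female had a weak peak.

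**Figure D3:**
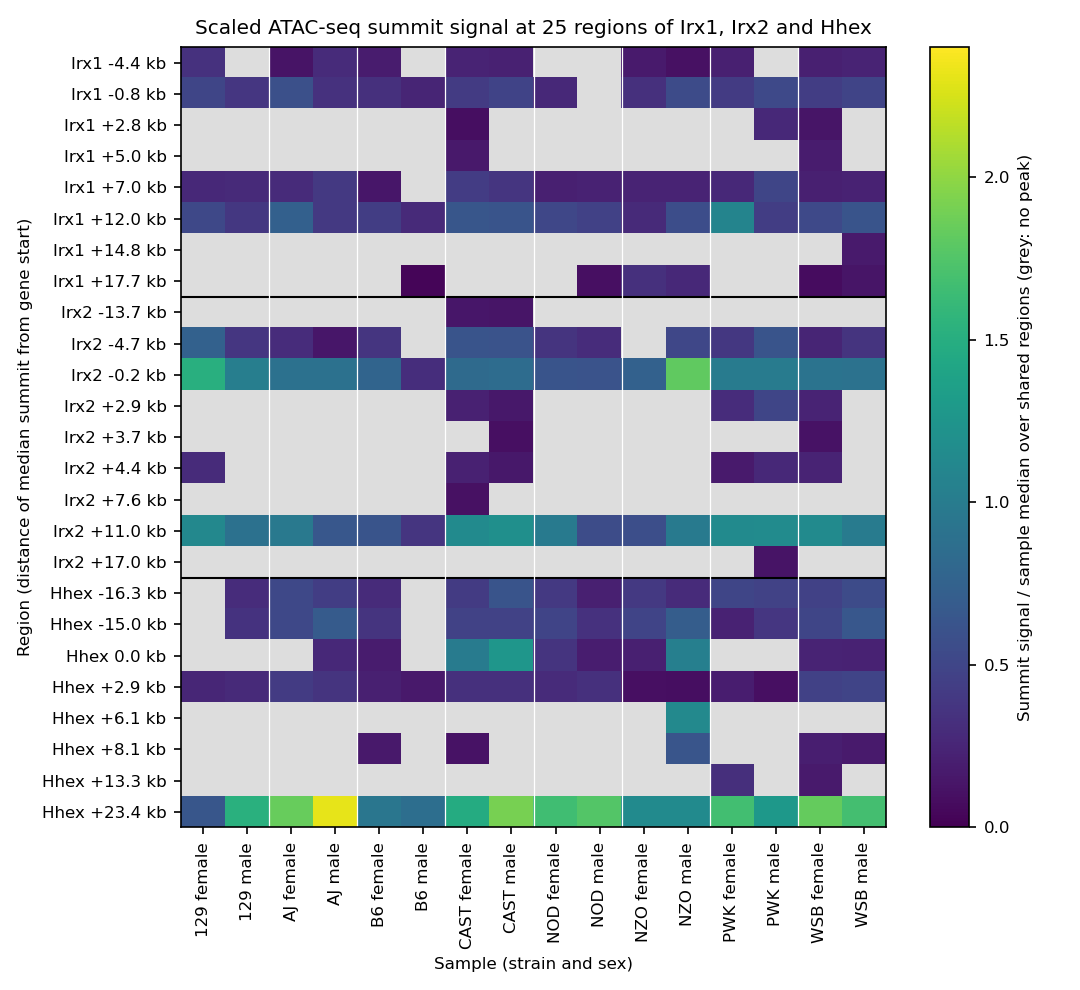
Scaled summit signal of each of the 16 samples (columns) at each of the 25 regions (rows, named by gene and the distance of the median summit from the gene start in kb). Colour gives the signal in multiples of the median of shared regions, and grey means no peak was listed. The Hhex row at 23.4 kb is brightest, with 2.31 in the AJ male, and the row at the Hhex start reaches 1.00 or more in the CAST samples and the NZO male.

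At Irx2, a region at the start and one downstream had a peak in every sample at nearly the same mean level. The start region (chr13:72627350-72629560) covers the first exon, and its summits lay between the start of Irx2 and that of Gm20554, a noncoding gene on the other strand. Its mean scaled signal was 0.920 ± 0.347 (SD, n = 16). It was 1.52 in the 129 female and 1.03 in the 129 male, 0.892 and 0.891 in AJ, and 0.774 and 0.313 in B6. It was 0.830 and 0.846 in CAST, 0.628 and 0.610 in NOD, and 0.741 in the NZO female but 1.82 in the NZO male. PWK gave 1.00 in both, and WSB 0.915 and 0.909. In AJ, CAST, NOD, PWK and WSB the female and the male lay close together, and the extremes came from single libraries of NZO, 129 and B6.

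The highest and the lowest samples at the Irx2 start were thus the libraries with the largest and the smallest excess of signal at gene starts in general. Between these extremes the order was not kept. The CAST female, with an excess of 1.40, was at 0.830, and the AJ female, with 0.909, was at 0.892. Whether the excess accounts for the signal at this start was not tested. No strain effect was called (limma, adjusted p = 0.152). With gene-start regions alone, each library centred on their median, it was 0.104, and this alternative was added after the values were seen. On that log2 scale the NZO male (-0.42) and the 129 female (-0.67) were also the highest samples and the B6 male (-2.22) the lowest. By limma, B6 was then lower than the other strains by -0.72 (adjusted p = 0.136), against -0.90 (adjusted p = 0.15) on the scale used throughout. That difference rested on single libraries, at -1.59 without the B6 female and -0.22 without the B6 male. A strain effect was called without certain libraries, with a limma adjusted p of 0.0116 without the NZO female, 0.0485 without the NZO male and 0.0431 without the B6 female. Without the NZO female, B6 was lower than the other strains by -1.01 and NZO, left with its male alone, was higher by 1.26.

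**Figure D4:**
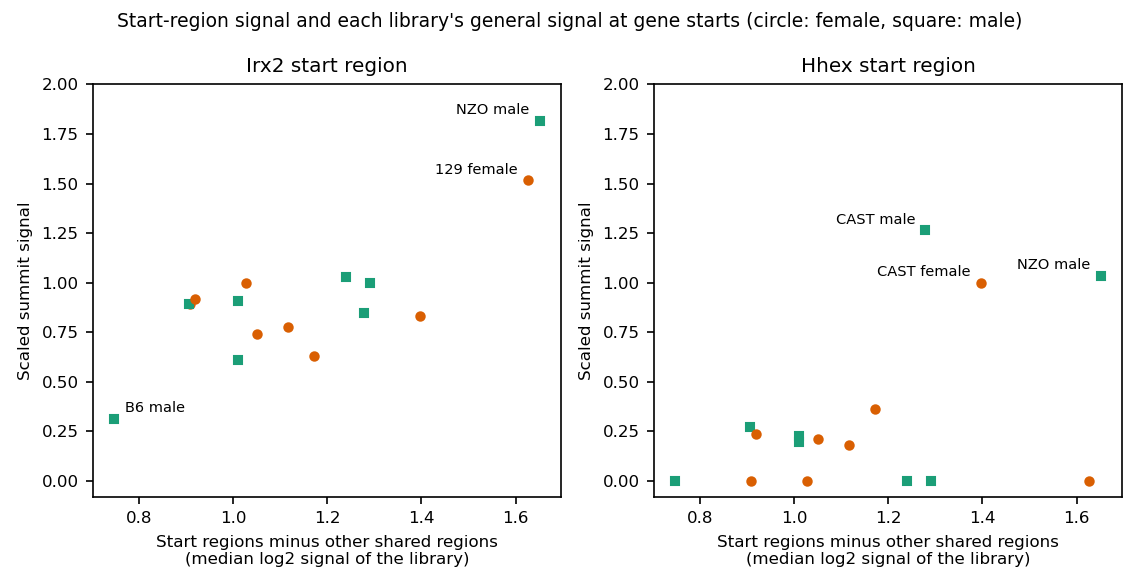
Scaled signal at the start regions of Irx2 (left) and Hhex (right) in each sample against the excess of signal at gene starts over other shared regions in the same library (median log2 signal, x axis), with circles for females and squares for males. At Irx2 the NZO male (1.82) and the 129 female (1.52) are at the top right and the B6 male (0.313) at the lower left; at Hhex the CAST samples and the NZO male are high and the 129 female has no peak.

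The downstream region of Irx2 (chr13:72638505-72640891) is intergenic, 11 kb after the start, with a mean scaled signal of 0.909 ± 0.264 (SD, n = 16). It was 1.15 and 1.19 in CAST, 1.15 and 1.16 in PWK, and 1.15 and 1.00 in WSB. Among classical strains it was 1.12 and 0.899 in 129, 0.969 and 0.655 in AJ, 0.988 and 0.561 in NOD, 0.580 and 0.982 in NZO, and 0.619 and 0.373 in B6. The wild-derived samples, at 1.00 to 1.19, were near the top, and the classical samples reached from 0.373 to 1.12, so the classes overlapped. B6 was lowest in the mean, 0.496 ± 0.174 (SD, n = 2), and CAST highest, 1.17 ± 0.0285, a ratio of 2.36.

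The strain effect at this region did not pass the threshold (limma, adjusted p = 0.0646). B6 was lower than the other 7 strains by -0.95 ± 0.25 (SE, log2 scale, adjusted p = 0.0574). The effect was called without the NZO female (adjusted p = 0.0112) and without the NZO male (0.0093), and in both cases B6 was called lower than the others (adjusted p = 0.00822 and 0.0236). Without the NZO male, CAST was higher than the other 7 strains by 0.57, against 0.49 with all samples. The libraries of neighbouring strains in the order of the means overlapped in all 7 cases. Further apart in that order, both libraries of CAST, of PWK and of WSB lay above every library of AJ, NOD, NZO and B6. Among classical samples only the 129 female, at 1.12, lay above a wild-derived one, the WSB male at 1.00.

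Upstream of Irx2, the region at 4.7 kb had a peak in 14 samples, from 0.145 in the AJ male to 0.741 in the 129 female, and none in the B6 male or the NZO female. The other 6 regions were weak and listed in 1 to 6 samples. Within the gene, a region over a coding exon 2.9 kb after the start had a peak in 5 samples, which were both CAST, both PWK and the WSB female, at 0.154 to 0.5. Another at 4.4 kb, at the untranslated last exon, had a peak in the same 5 samples and in the 129 female, at 0.154 to 0.293. These weak peaks came mostly from wild-derived samples, which had among the longest lists. The NZO male, with 141307 listed peaks, had none of them, and the 129 female, with 90476, had the one at 4.4 kb. The part of list length was not tested.

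At Irx1 no region reached the mean summit signal of the start of Irx2. Its region with a peak in all 16 samples (chr13:71951400-71952499) lay 12.0 kb after the start, beyond the end of the gene and in an intron of the noncoding gene Gm40999. Its mean scaled signal was 0.534 ± 0.192 (SD, n = 16). The values were 0.517 and 0.391 in 129, 0.739 and 0.400 in AJ, 0.441 and 0.289 in B6, 0.641 and 0.625 in CAST, and 0.512 and 0.463 in NOD. They were 0.284 and 0.564 in NZO, 1.08 and 0.438 in PWK, and 0.528 and 0.625 in WSB. The PWK female was highest and the NZO female lowest, each far from the male of its strain. No strain effect was called (limma, adjusted p = 0.390), and all 7 pairs of neighbouring strains overlapped.

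The start region of Irx1 (chr13:71962600-71964680) had a peak in 15 samples, from 0.253 in the B6 male to 0.585 in the AJ female, and none in the NOD male. Its summits lay at -813 to -881 bases from the gene start, whereas those of Irx2 lay at -97 to -246 bases. The region 7.0 kb after the start, at the first exon of Gm40999, likewise had a peak in 15 samples, from 0.143 in the B6 female to 0.5 in the PWK male, and none in the B6 male. Upstream, at 4.4 kb, a peak was listed in 11 samples, at 0.109 to 0.345. Further downstream, at 17.7 kb, 6 samples had a peak, among them both NZO samples (0.333 and 0.273) and both WSB samples (0.0755 and 0.136). At 14.8 kb the WSB male alone had one, at 0.17. The regions inside the gene, 2.8 and 5.0 kb after the start and each within 1 kb of an alternative start, had a peak in 3 and 2 samples, all wild-derived. At regions with a peak in at least 12 samples, with 0 for the others, the 5 members that this added were not called for strain (limma, adjusted p from 0.193 to 0.579).

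**Figure D5:**
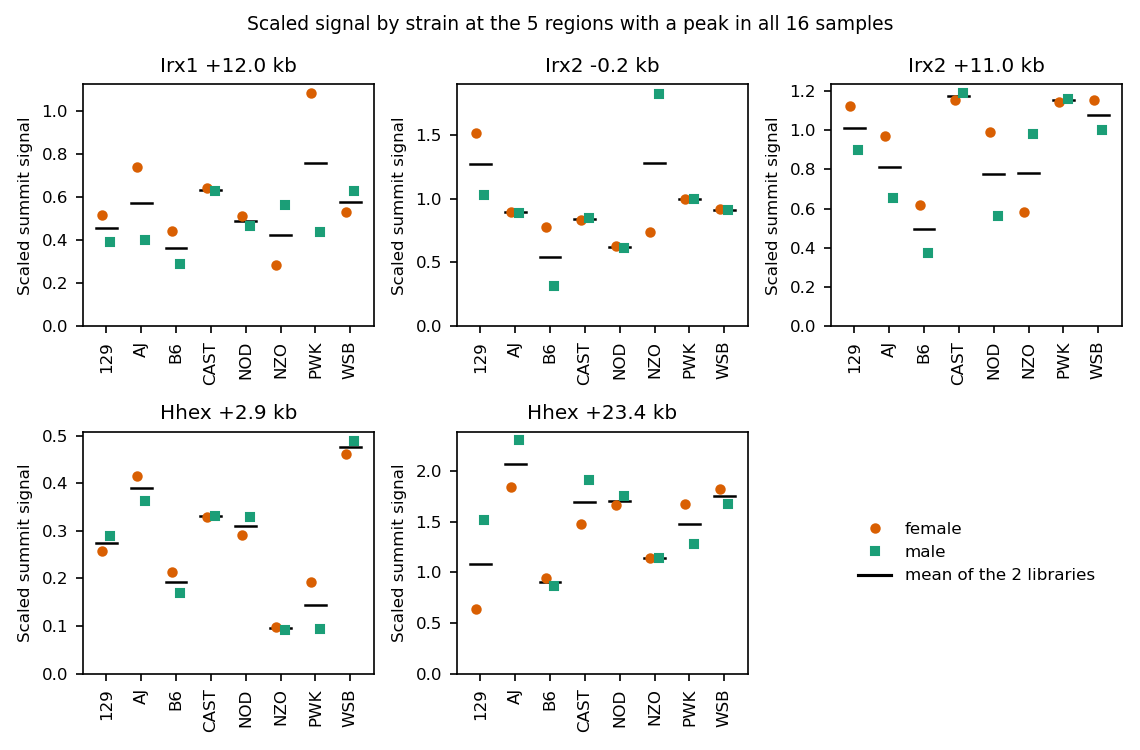
Scaled summit signal by strain at the 5 regions that every sample had called, with circles for females, squares for males and a line for the mean of the 2 libraries. At Hhex 2.9 kb the libraries of each strain but PWK lie close together, from 0.0909 in the NZO male to 0.489 in the WSB male. At Irx2 11 kb and Irx1 12.0 kb strains that are neighbours in the order of the means overlap.

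No difference between the sexes was detected at the 5 regions. Males differed from females by -0.26 ± 0.20 (SE, log2 scale) at Irx1 12.0 kb, -0.07 ± 0.21 at the Irx2 start, -0.22 ± 0.16 at Irx2 11 kb, -0.11 ± 0.13 at Hhex 2.9 kb and 0.17 ± 0.16 at Hhex 23.4 kb. The count called was 0 of 5 in limma, beside 0% of the 40940 regions tested. At an unadjusted p under 0.05 it was 0 of 5, beside 3.96% of all.

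Between strain classes, 0 of 5 regions were called in limma, beside 0.0342% of all tested. The log2 difference was 0.61 ± 0.25 (SE) at Irx2 11 kb (limma, adjusted p = 0.351) and 0.50 ± 0.21 at Irx1 12.0 kb (limma, adjusted p = 0.379), the 2 of 5 regions with an unadjusted p under 0.05, beside 12.1% of all. At the other 3 it was 0.14 to 0.33. All 5 differences were positive, and the test set 3 strains against 5.

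Other genes of the same cell types were described at their start regions. Of the 13 genes in the list for alpha cells, 9 carried a peak in each of the samples, and a strain effect was called for 4 of these 9 (limma, adjusted p under 0.05), beside 35.7% of all regions. They were Ttr (transthyretin), Gc (vitamin D binding protein), Foxa2 and Nkx2-2 (endocrine transcription factors), with adjusted p-values of 0.0348, 0.0407, 0.0114 and 0.0305. Gcg (0.188), Pax6 (0.215), Isl1 (0.161), Neurod1 (0.211) and the transporter gene Slc7a2 (0.306) were not called. Of the 6 genes in the list for delta cells, 5 had a peak in all 16 samples, and Rbp4 was called (adjusted p = 0.0009) while Ghsr, Crhr2, Isl1 and Pdx1 were not.

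At Rbp4 the scaled signal was lowest in B6, 0.226 and 0.0964, and highest in the PWK female, 1.03, and the WSB male, 1.01. Within the Iroquois family, Irx3 and Irx6 each had a start-region peak in 3 samples, all CAST or WSB, and Irx4 and Irx5 had none. Irx1 and Irx2 were thus the Iroquois genes with a start-region peak in most samples.

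Genes whose start regions varied most like those of the members over the 16 samples were listed by Pearson's r of the centred log2 signal, as a description. Samples share strains and library properties, so this r holds them too. For the Irx2 start, out of 11277 genes, these were Mr1 (r = 0.954), Hdhd2 (0.908) and Cfap221 (0.893), and 1% of genes had an r above 0.800. For the Hhex region 2.9 kb after the start, which lies within 1 kb of an alternative start, they were Gad1 (0.886), Pou2f2 (0.797) and Cadps (0.777), where 1% of genes had an r above 0.580.

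The windows printed above were searched on both strands for 7 short motifs. TAATTA is a core that homeodomain factors bind, and ACANNTGT is the palindrome of the Iroquois family. TGTTTAC is bound by forkhead factors such as Foxa2, CAGATGG is an E-box of the NeuroD type, TGACGTCA is the cyclic AMP response element, TGATAA is bound by GATA factors and ATTGTT by Sox factors. The Irx1 downstream window held 2 GATA matches and 1 Sox match, and the downstream window of Hhex held 1 Sox match. No match was found in the other 4 windows, which says only that these letters are not in them. Windows of 300 bases at all 40940 shared regions held the homeodomain core in 8.66%, the Iroquois palindrome in 10.5%, the forkhead motif in 8.13%, the E-box in 9.87%, the cyclic AMP response element in 1.5%, the GATA motif in 10.9% and the Sox motif in 13.2%. These matches are descriptions of the letters and not binding sites. In base composition, the windows at the starts of Hhex and Irx2 held 76.4% and 70.3% G and C, the downstream window of Irx2 59.3%, that of Irx1 49.3%, and those in the intron and downstream of Hhex 42.0% and 44.7%, against a median of 49.0% for shared regions. Variants of the other 7 strains were not analysed here.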

How the data were processed

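The authors removed adapters (cutadapt 2.0), mapped the reads of all strains to the C57BL/6J assembly mm10 (bowtie2 2.3.4.1), discarded mitochondrial and duplicate reads (Picard 2.9.2), and called peaks per sample with MOSAiCS, keeping a false discovery rate of 0.05. They also aligned to individualized genomes, reported a small average difference between these alignments and kept those to the reference. No shift for the transposase was stated. The deposited lists, which carry no column names, hold a whole-number summit signal, a peak score and a value read here as a −log10 p. They hold no read totals, so they do not give the depth of a sample. The text of the study gives a mean number of reads per sample with its spread. The deposited summit signals are whole numbers whose medians differ between samples, and no scaling to depth is stated for the sample lists. The study scaled the signal of its reproducible strain peaks to read number, and those values are not used here. The deposited score, whose averaging is not stated, served only as an alternative. Deposited strain lists were kept at an irreproducible discovery rate of 0.05.

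Peaks of the 16 lists were merged where they overlapped or touched. Regions were annotated with GENCODE M21 and sequences read from GRCm38.p6. Tests used limma 3.58.1 in R 4.3.3 on log2(signal + 1), centred on the sample median over shared regions, in a model of strain and sex, with Benjamini-Hochberg adjustment over all 40940 shared regions and a threshold of 0.05. A fold change is therefore on the log2(signal + 1) scale and understated for weak regions. The strain class was tested on 8 strain means. The script was tested on simulated data. The members, gene lists and motifs were chosen with earlier results of these data known. Some genes of these lists are not reported here. Text names every region within 1 kb of a member's start, those with a peak in all 16 samples and, per gene, up to 5 more with the widest strain range, which came to all 25. The female and male of a strain carry no replicate number, and where nothing says how many animals they came from, p-values measure only the spread between these samples. The alternatives were other centring, pseudocount, filters, peak lists and left-out samples.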

Additional observations from a re-analysis of the deposited data

Results flagged for a closer look

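Among the 12 regions with a peak in at least 10 samples, the 8 females and the 8 males were each searched for a sample far from the rest, which made 24 groups, of which chance alone flags about 1 in 20. In 3 groups a sample stood apart. At the Irx2 start, the 129 female had a scaled signal of 1.52 among the females, with a gap to the next of 0.581 of the range. At the Hhex region 16.3 kb upstream, within Kif11, the 129 female was at 0, with no peak listed, and a gap of 0.569 of the range. At the Hhex start, the CAST female was at 1.00 among the females, with a gap of 0.639 of the range, and the CAST male was at 1.26.

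Chromosome X lay outside the rule for regions, but it holds Pou3f4, a further alpha cell factor. Its start region (chrX:110813917-110817415) had a peak in 16 of 16 samples, with a scaled signal from 0.698 in the CAST female to 2.62 in the NOD female, and the CAST male was the next lowest at 0.956. Males carry 1 copy of chromosome X, and the medians of females and males were 1.69 and 1.86. The difference was not tested.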

How the results depend on the processing

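The strain effect at the Hhex region 2.9 kb after the start was called under every alternative in which the region could be tested, with adjusted p-values up to 0.00553, and it could not be tested with stricter peaks or with equal numbers of peaks, where it lacked a peak in some samples. Of the 5 regions, the number called for strain was 1 in the main analysis, 3 with no centring and with a pseudocount of 10, 2 with the deposited score and without PWK, and 1 to 4 when single samples were left out. With stricter peaks only 2 regions could be tested and both, Hhex 23.4 kb and Irx2 11 kb, were called. With equal numbers of peaks 4 could be tested and the 1 called was Hhex 23.4 kb (adjusted p = 0.0499). The regions added were Hhex 23.4 kb, Irx2 11 kb and the Irx2 start, and the cause was not tested. Calls of a strain against the other 7 numbered 4, and 2 to 7 when single samples were left out, 2 without either WSB library and 7 without the NZO female. The call of AJ at Hhex 2.9 kb was also lost with no centring (0.36, adjusted p = 0.552) and with regions in at least 12 samples (adjusted p = 0.0579). With no centring, which keeps any difference in signal level between libraries, CAST was called higher at 4 of the 5 regions, and the cause was not tested. Sex and strain class gave 0 calls under every alternative, including single samples left out (0 to 0). The number of regions with a peak in all samples was 5, but 2 with stricter peaks, 0 where 0.5 of the merged region had to be covered and 1 in all 8 strain lists, which was Hhex 23.4 kb. With flanks of 10 kb there were 19 regions, and Hhex 23.4 kb fell outside them, which left 4 with a peak in all samples. Mean scaled signals moved by more than 1 SD at 4 of 25 regions with the deposited score and at 19 of 25 with the whole-list median as the scale, which multiplied them by 2.5 to 4.22. The model pairs the female and male of a strain for the test of sex, and strain class also gave 0 calls over 16 samples with strain as a block. With no read totals, the smallest summit signals, such as 3 and 5 at Hhex 2.9 kb, have an unknown counting error.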
